A study of Mus musculus with 4 samples.

Results

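The insulin-like growth factor (IGF) axis was followed in 4 stable lines of 3T3-L1 cells through 8 named genes, which were a ligand (Igf1), 2 receptors (Igf1r and Igf2r) and 5 binding proteins (Igfbp3 to Igfbp7). Rows of the deposited tables were matched to these symbols by RefSeq identifier, which found 7 of the 8 genes among 13085 genes in all. Igfbp3 matched no row and was not analysed here. 3T3-L1 is a murine preadipocyte line that turns into fat-storing cells under adipogenic hormones. FLAG-CACUL1 cells stably carried a FLAG-tagged CACUL1 expression vector, and FLAG cells carried the same vector without the insert, both selected with G418. The hairpin lines expressed a short hairpin RNA, directed against CACUL1 (sh-CACUL1) or against luciferase (sh-Luc), and were selected with hygromycin B. Neither the species of the inserted CACUL1 nor the number of clones behind a line is stated. All 4 lines were taken to confluence, induced with rosiglitazone (5 µM), IBMX (0.5 mM), dexamethasone (1 µg/mL) and insulin (5 µg/mL), kept on insulin, and harvested on differentiation day 8. Each line was a drug-resistant stable population sequenced once, so no difference below has a replicate check and none was tested.

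IGF1 and IGF2 are secreted growth factors. IGF1 acts through the receptor tyrosine kinase IGF1R, which signals through IRS docking proteins to PI3K and AKT, whereas IGF2R, the cation-independent mannose 6-phosphate receptor, carries IGF2 and lysosomal enzymes to lysosomes and has no kinase activity. IGF binding proteins hold the ligands outside the cell and can limit or prolong their access to the receptor. Preadipocytes respond to IGF1 and to high insulin by expanding and differentiating, and fat tissue is itself a source of IGF1 and of several binding proteins.

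The values are FPKM, the fragments counted per kilobase of transcript and scaled to the mapped total of each sample, so that levels of different genes can be set side by side. The number of fragments is not given. The product of FPKM and transcript length in weakly expressed genes was spaced in partly even steps. These put the depth at about 24000000 fragments in sh-Luc and between 14300000 and 15200000 in the other lines. Intervals given below are exact 95% Poisson intervals on the estimated fragments and cover counting error only. A fold change is the difference of log2(FPKM + 1) and understates the change of genes at low FPKM. A gene was counted as past the cut-off at a fold of 2 or more. Cacul1 was at 9.61 FPKM in FLAG and 11.8 FPKM with the FLAG-CACUL1 vector, and at 10.2 FPKM in sh-Luc and 5.39 FPKM with the hairpin against it. Its log2 fold changes, 0.27 and -0.82, were both under the cut-off, and the terms overexpression and depletion below follow the labels. These are RNA values. The authors checked protein in the stable lines by western blot, against FLAG or CACUL1. The labels call the cells preadipocytes. The 9 adipocyte markers with rows summed to 8435 FPKM in FLAG, 916.4 FPKM in FLAG-CACUL1, 1666 FPKM in sh-Luc and 16627 FPKM in sh-CACUL1. No row was at 0 in any sample, so the presence of a marker alone does not bear on the cell state. In bulk RNA fewer cells of a type and less RNA per cell cannot be told apart.

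Between the highest and the lowest line the FPKM ratio was widest for Igfbp5 (390.2), Igfbp4 (49.4) and Igf1 (5.62), lay between 3.13 and 3.42 for Igf1r, Igf2r and Igfbp6, and was narrowest for Igfbp7 (2.10). The 250 bases upstream of the RefSeq transcription start (GRCm38.p6) are shown for Igf2r and Igfbp4, which differed in opposite directions in both comparisons, and for Igfbp7, which differed little. Capitals mark matches on either strand to 5 short motifs. These were AGGTCA, which is the core hexamer recognised by many nuclear receptors, and GTAAACA, which is the core recognised by FOXO factors downstream of AKT. The others were the promoter elements GGGCGG (the GC box bound by SP1 and its relatives), TATAAA (the TATA box near which transcription starts) and the CCAAT box. No motif is contained in another, and adjoining matches run together in capitals. The Igf2r window lies at chr17:12769707-12769956 on the minus strand, the Igfbp4 window at chr11:99040994-99041243 on the plus strand and the Igfbp7 window at chr5:77408046-77408295 on the minus strand, and GENCODE M21 annotates no exon in any of them. The RefSeq span of Igfbp4 begins upstream of its window, and the windows of Igf1 and Igfbp5 hold annotated exons of the same gene and are not shown.
Igf2r: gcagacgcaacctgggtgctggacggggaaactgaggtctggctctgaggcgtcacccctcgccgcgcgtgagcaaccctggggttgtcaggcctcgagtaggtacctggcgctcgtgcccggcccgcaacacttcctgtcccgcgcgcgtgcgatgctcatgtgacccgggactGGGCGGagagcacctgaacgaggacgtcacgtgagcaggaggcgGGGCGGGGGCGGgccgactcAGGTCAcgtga
Igfbp4: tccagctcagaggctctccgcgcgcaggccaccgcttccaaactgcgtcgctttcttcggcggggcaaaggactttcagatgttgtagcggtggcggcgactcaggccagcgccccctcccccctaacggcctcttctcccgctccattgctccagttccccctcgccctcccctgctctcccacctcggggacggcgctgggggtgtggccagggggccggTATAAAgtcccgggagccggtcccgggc
Igfbp7: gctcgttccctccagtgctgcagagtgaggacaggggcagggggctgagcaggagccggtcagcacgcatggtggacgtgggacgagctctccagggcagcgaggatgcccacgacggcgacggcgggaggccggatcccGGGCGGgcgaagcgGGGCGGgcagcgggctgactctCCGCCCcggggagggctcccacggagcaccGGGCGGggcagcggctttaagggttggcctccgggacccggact

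The Igf2r window held 1 AGGTCA match, 11 bases upstream of the start, and 3 GGGCGG matches. In the Igfbp4 window the only match was TATAAA, 28 bases upstream of the start, and the Igfbp7 window held 4 GGGCGG matches. Over the upstream windows of all 7 genes, AGGTCA was found in Igf1, Igf1r and Igf2r, GGGCGG in Igf1r, Igf2r and Igfbp7, TATAAA in Igfbp4 and Igfbp6, CCAAT in Igf1 and Igfbp6, and GTAAACA in none of these windows. Among 32851 upstream windows of the same length, AGGTCA was present in 14% of windows, GGGCGG in 32.7%, TATAAA in 12.4%, CCAAT in 33.8% and GTAAACA in 3.17%. These matches describe the sequence, and binding was not measured.

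Igf1 encodes the ligand, and RefSeq places it on chromosome 10 of GRCm38.p6 (87858265 to 87937047, plus strand). Its transcript was scarce in all 4 lines, with 0.459 FPKM in FLAG, 2.58 FPKM in FLAG-CACUL1, 2.29 FPKM in sh-Luc and 0.517 FPKM in sh-CACUL1. FLAG-CACUL1 and sh-Luc were thus high, and FLAG and sh-CACUL1 low, with counting intervals that did not overlap between the high and the low pair and overlapped within each. The row joins 5 RefSeq transcripts of between 651 and 7052 bases, so the FLAG value stands for between 4 and 47 fragments and the intervals, which assume the shortest, are wide. Igf1 was higher in FLAG-CACUL1 than in FLAG by 1.30 on the log2 scale and lower in sh-CACUL1 than in sh-Luc (log2 fold change -1.12). Both scaling alternatives brought the sh-CACUL1 difference under the cut-off (-0.89 after quantile normalization and -0.88 after median-of-ratios scaling), and without a pseudocount the values were 2.49 and -2.15.

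Igf1r, the gene of the signaling receptor, lies on chromosome 7 from 67952257 to 68233668. Its level was 5.70 FPKM in FLAG, 3.91 FPKM in FLAG-CACUL1, 3.25 FPKM in sh-Luc and 1.79 FPKM in sh-CACUL1. The order ran from FLAG down to sh-CACUL1, a ratio of 3.18 between the ends, and no neighbouring pair had overlapping counting intervals. Igf1r was lower in both engineered lines than in the matching control, with log2 fold changes of -0.45 for the overexpressing line and -0.61 for the depleted line, and neither reached the cut-off. The sh-CACUL1 value shrank to -0.23 after quantile normalization and -0.29 after median-of-ratios scaling.

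Igf2r, the gene of the IGF2 and mannose 6-phosphate receptor, lies on chromosome 17 from 12682406 to 12769706 on the minus strand. It was at 36.8 FPKM in FLAG, 76.7 FPKM in FLAG-CACUL1, 115 FPKM in sh-Luc and 39.0 FPKM in sh-CACUL1. The sh-Luc and FLAG-CACUL1 lines were high, and FLAG and sh-CACUL1 lay close together at the bottom with a ratio of 1.06. Igf2r was higher in FLAG-CACUL1 than in FLAG by 1.04 on the log2 scale and lower in sh-CACUL1 than in sh-Luc (log2 fold change -1.54). Median-of-ratios scaling gave 0.89, under the cut-off, and -1.09. M6pr, which encodes the smaller, cation-dependent mannose 6-phosphate receptor, did not have this pattern, with 93.5 FPKM in FLAG, 50.3 FPKM in FLAG-CACUL1, 69.5 FPKM in sh-Luc and 72.3 FPKM in sh-CACUL1. The FPKM ratio of Igf2r to Igf1r was 6.47 in FLAG and 19.6 in its CACUL1 counterpart, and 35.5 in sh-Luc and 21.8 in its counterpart, so Igf2r was the more abundant receptor transcript in each line.

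**Figure D1:**
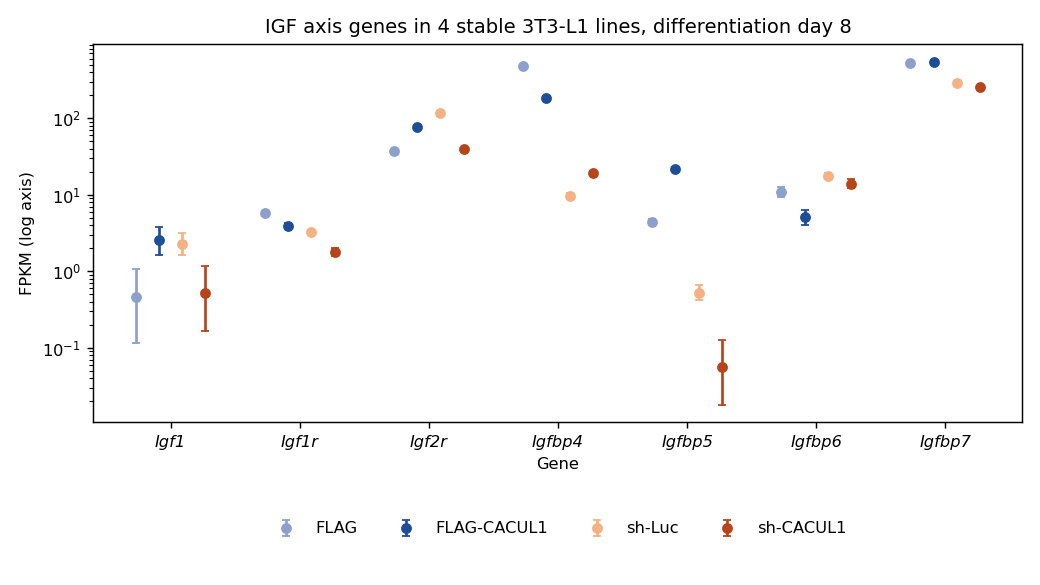
FPKM on a log axis for the 7 genes with a row, 1 point per stable line, with exact 95% Poisson counting intervals on estimated fragments (for Igf1 and Igfbp7, at the shortest transcript). Igfbp4 spans 9.72 to 480.0 FPKM and Igfbp5 0.056 to 21.8 FPKM, whereas Igfbp7 stays between 259 and 542 FPKM.

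Igfbp4 encodes a secreted binding protein that restrains IGF action and is cleaved by the protease PAPP-A. The gene lies on chromosome 11 from 99040005 to 99052655. Its level was 480.0 FPKM in FLAG, 181 FPKM in FLAG-CACUL1, 9.72 FPKM in sh-Luc and 19.1 FPKM in sh-CACUL1. Both FLAG lines were high and both hairpin lines were low, and this split exceeded either difference within a vector. Among all 13085 genes Igfbp4 ranked 170 in FLAG and 370 in FLAG-CACUL1, against 6032 in sh-Luc and 2849 in sh-CACUL1. FLAG-CACUL1 was lower than FLAG (log2 fold change -1.40), and the depleted line lay above sh-Luc by 0.91, short of the cut-off. The sh-CACUL1 difference passed the cut-off after quantile normalization (1.38) and median-of-ratios scaling (1.32).

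Igfbp5 encodes a binding protein that also attaches to extracellular matrix, and lies on chromosome 1 from 72858065 to 72874865 on the minus strand. It was at 4.40 FPKM in FLAG, 21.8 FPKM in FLAG-CACUL1, 0.527 FPKM in sh-Luc and 0.0560 FPKM in sh-CACUL1. The FLAG-CACUL1 line was highest, and the order fell through FLAG and sh-Luc to sh-CACUL1 with no overlapping neighbours. The sh-CACUL1 value stands for about 5 fragments, with an interval of 0.0178 to 0.128 FPKM. Igfbp5 was higher in FLAG-CACUL1 than in FLAG by 2.08 on the log2 scale, and by 2.31 without a pseudocount. In sh-CACUL1 against sh-Luc the log2 fold change was -0.53 with the pseudocount of 1, -2.01 with a pseudocount of 0.1 and -3.24 without one.

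Igfbp6, whose protein prefers IGF2 over IGF1, lies on chromosome 15 from 102144186 to 102149512. It was at 10.8 FPKM in FLAG, 5.13 FPKM in FLAG-CACUL1, 17.6 FPKM in sh-Luc and 14.0 FPKM in sh-CACUL1. The hairpin lines were above both FLAG lines, although the intervals of sh-CACUL1 and FLAG overlapped. The log2 fold change was -0.95 in FLAG-CACUL1, which passed the cut-off after quantile normalization (-1.04) and median-of-ratios scaling (-1.08), and -0.31 in sh-CACUL1, which changed sign under the same scalings (0.12 and 0.11).

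Igfbp7 encodes a more distant relative that binds IGFs weakly, and lies on chromosome 5 from 77349240 to 77408045 on the minus strand. It was the most abundant of the 7 genes in all 4 lines, at 526 FPKM in FLAG, 542 FPKM in FLAG-CACUL1, 291 FPKM in sh-Luc and 259 FPKM in sh-CACUL1. The FLAG lines were level with each other and above both hairpin lines. Its log2 fold changes were 0.04 with overexpression and -0.17 with depletion, and median-of-ratios scaling turned both signs (-0.11 and 0.28). Exons of Polr2b on the opposite strand overlap 85 bases of Igfbp7 exons, and it is not stated whether counting used the strand.

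The make-up of the binding protein transcripts differed between the vectors and also between the FLAG lines. The 4 binding protein genes summed to 1021 FPKM in FLAG, 750.4 FPKM in FLAG-CACUL1, 319 FPKM in sh-Luc and 291.8 FPKM in sh-CACUL1. Igfbp4 made up 47.0% of that sum in FLAG and 24.1% in FLAG-CACUL1, but 3.05% in sh-Luc and 6.54% in sh-CACUL1. Igfbp7 made up 51.5%, 72.3%, 91.3% and 88.7% in the same order of lines. Igfbp5 reached 2.91% in FLAG-CACUL1 and was under 1% in the other lines, and Igfbp6 ranged from 0.683% in FLAG-CACUL1 to 5.50% in sh-Luc.

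**Figure D2:**
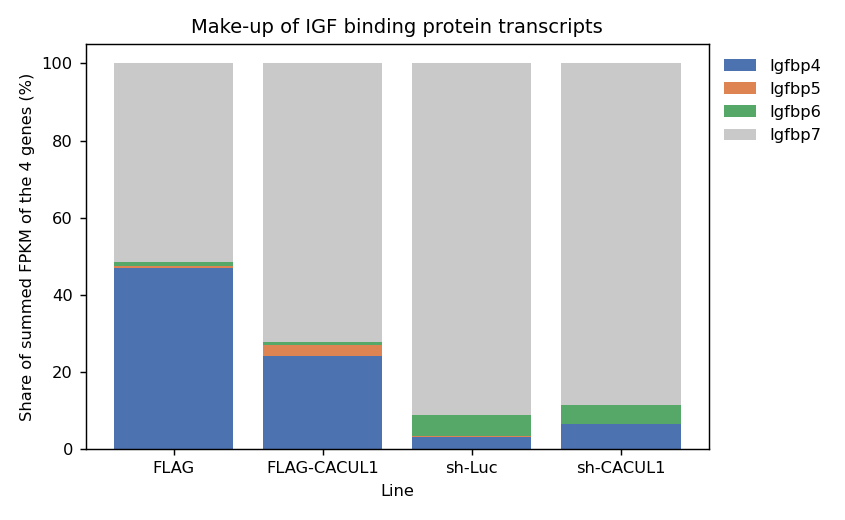
Share in percent of the summed FPKM of Igfbp4, Igfbp5, Igfbp6 and Igfbp7 in each stable line, as stacked bars. Igfbp4 takes 47.0% in FLAG and 24.1% in FLAG-CACUL1, and at most 6.54% in the hairpin lines.

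CACUL1 overexpression was read from FLAG-CACUL1 against FLAG, which carry the same vector. Past the cut-off were 4 of the 7 genes, against 14.7% of all genes. Igfbp5, Igf1 and Igf2r were higher (7.51% of all genes were) and Igfbp4 was lower (7.22% of all genes were). The median log2 fold change was 0.04 over the 7 genes and 0.09 over all genes. Of the called genes 51% were higher, and the share was 44.9% after quantile normalization and 38.3% after median-of-ratios scaling. Adipocyte markers moved with this comparison, as 9 of 9 were lower in FLAG-CACUL1, while 4 of 6 preadipocyte markers were past the cut-off upward and Dlk1 was past it downward. Summed preadipocyte markers were at 285.5 FPKM in FLAG and at 684.5 FPKM with overexpression. The part of differentiation state in the IGF gene values was not tested.

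CACUL1 depletion was read from sh-CACUL1 against sh-Luc. Past the cut-off were 2 of the 7 genes, Igf1 and Igf2r, both lower, against 21.3% of all genes in either direction, 16.4% lower and 4.94% higher. The 2 of 7 is near that background. The median log2 fold change was -0.53 over the 7 genes and -0.30 over all genes. That shift of all genes was -0.01 after quantile normalization and 0.00 after median-of-ratios scaling, and the share of called genes that were higher went from 23.2% to 52.1% and 53.9%. Before scaling, Igfbp4 alone among the 7 genes was on the higher side in the depleted line. All 9 adipocyte markers with a row were higher in sh-CACUL1, and summed preadipocyte markers were at 175.8 FPKM in the control and 111.4 FPKM after depletion. By gene 2 of 6 preadipocyte markers were past the cut-off upward, Thy1 (4.41) and Dlk1 (4.19), and 3 downward. Their part in these values was not tested.

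The comparisons with the matching control share no sample and could be set against each other. Igf1 and Igf2r were past the cut-off in both and in opposite directions, higher with FLAG-CACUL1 and lower with sh-CACUL1, which is 2 of 7 genes against 4.71% of all genes. The genes behind this count changed with scaling. After quantile normalization they were Igf2r (1.05 and -1.30) and Igfbp4 (-1.30 and 1.38), and after median-of-ratios scaling Igfbp4 alone (-1.56 and 1.32), which ran in the reverse direction. With a pseudocount of 0.1, Igfbp5 (2.29 and -2.01) joined Igf1 and Igf2r, though its sh-CACUL1 value stands for about 5 fragments. Without regard to size, 5 of the 7 genes had opposite signs (71.4%), against 59.5% of all genes. The exceptions were Igf1r and Igfbp6, which were lower in both before scaling. With the controls exchanged (sh-Luc for overexpression and FLAG for depletion), Igf1 differed by 0.12 and 0.06 and Igf2r by -0.58 and 0.08, and neither kept its pattern. Igfbp4 then differed by 4.08 and -4.58, both opposite in sign to the values with the matching control, and Igfbp5 by 3.90 and -2.36.

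**Figure D3:**
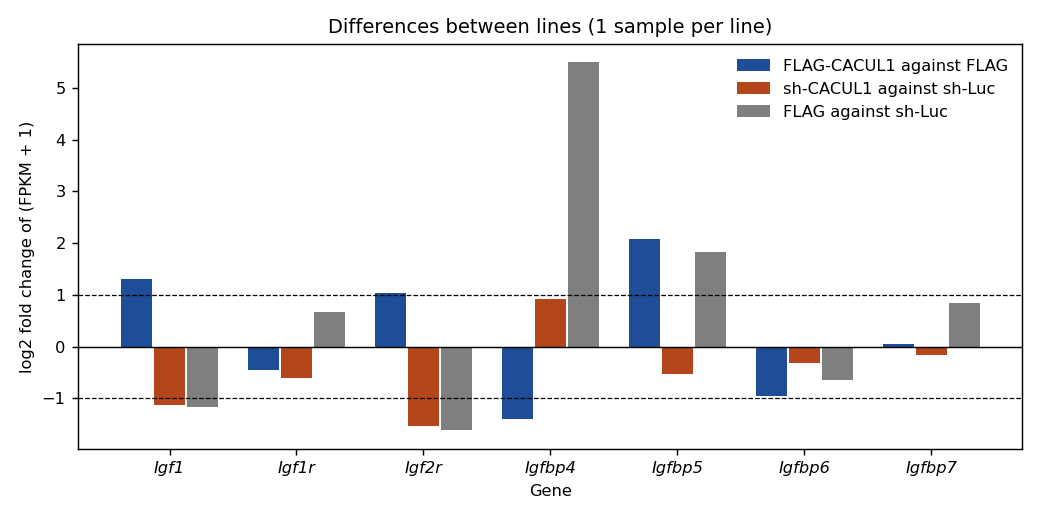
Log2 fold change of (FPKM + 1) for each gene in 3 comparisons of single samples, with dashed lines at the 2-fold cut-off. The grey bar for Igfbp4 (FLAG against sh-Luc) reaches 5.49 and is the longest, and only Igf1 and Igf2r pass the lines in opposite directions in the coloured bars.

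The FLAG and sh-Luc controls differ in vector and selection drug and not in CACUL1 treatment. Between them 4 of the 7 genes were past the cut-off, against 21.0% of all genes. Igfbp4 (5.49) and Igfbp5 (1.82) were higher in FLAG, as were 8.58% of all genes, and Igf1 (-1.17) and Igf2r (-1.62) were lower in FLAG, as were 12.4% of all genes. Igfbp7 was at 0.85, under the cut-off. After quantile normalization Igf1 was at -0.97 here, under the cut-off, and after median-of-ratios scaling Igf1 lay just short of it and Igfbp7 was past it (1.15). This comparison shares its samples with the other comparisons. Of the genes called between the controls 40.8% were higher in FLAG, 54.1% after quantile normalization and 62.8% after median-of-ratios scaling. Adipocyte markers (9 of 9) were also higher in FLAG than in sh-Luc, and the macrophage marker Cd68 was at 16.2 FPKM in FLAG, 1.44 FPKM in FLAG-CACUL1, 0.962 FPKM in sh-Luc and 1.18 FPKM in sh-CACUL1. Csf1r, the other macrophage marker with a row, was at or under 0.607 FPKM and the endothelial marker Pecam1 at or under 0.301 FPKM in each line. Their part in the values was not tested.

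The rest of the pathway was described through a list of 49 other genes, of which 43 had a row. With overexpression 5 were higher and 4 lower (median log2 fold change -0.04), 9 in all, against 14.7% of all genes. With depletion 3 were higher and 10 lower (median -0.37), 13 in all, against 21.3% of all genes, and after median-of-ratios scaling 6 were past the cut-off. Grb14 and Akt1 were past the cut-off in both comparisons and in opposite directions, which is 2 of 43 genes and near the 4.71% of all genes. Grb14, an adaptor that inhibits the insulin receptor, had 6.18 FPKM in FLAG, 16.4 FPKM in FLAG-CACUL1, 4.36 FPKM in sh-Luc and 1.63 FPKM in sh-CACUL1. Akt1, a kinase downstream of PI3K, had 80.4 FPKM in FLAG, 198 FPKM in FLAG-CACUL1, 148 FPKM in sh-Luc and 57.4 FPKM in sh-CACUL1, with log2 fold changes of 1.29 and -1.35.

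Among receptors and docking proteins, Insr, the insulin receptor gene, was lower in FLAG-CACUL1 than in FLAG (5.43 against 16.6 FPKM, log2 fold change -1.45) and differed by 0.37 in sh-CACUL1. The IRS genes went apart in FLAG-CACUL1. Irs1 was at 12.3 FPKM against 3.47 FPKM in FLAG (log2 fold change 1.58), and Irs2 was at 1.36 FPKM against 4.63 FPKM (-1.26). In sh-CACUL1 both were under the cut-off, at -0.50 and 0.38. The PI3K regulatory subunit genes Pik3r1 (1.30) and Pik3r3 (1.63) were higher in FLAG-CACUL1, and Pik3r2 (-1.11) and the transcription factor gene Foxo3 (-1.89) were lower in sh-CACUL1.

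Growth hormone drives Igf1 transcription through its receptor, JAK2 and STAT5. Ghr, the receptor gene, was at 137 FPKM in FLAG, 239 FPKM in FLAG-CACUL1, 178 FPKM in sh-Luc and 51.1 FPKM in sh-CACUL1, and was past the cut-off only in sh-CACUL1 (log2 fold change -1.78). Jak2 was lower in FLAG-CACUL1 (-1.01) and at -0.98 in sh-CACUL1. Stat5a was higher in sh-CACUL1 (1.12), and Cish, a feedback inhibitor induced by STAT5, was lower in FLAG-CACUL1 (-1.46). Of the genes that act on binding proteins, Stc1, whose product inhibits PAPP-A, was lower with depletion (2.90 FPKM in sh-Luc and 0.196 FPKM in sh-CACUL1, log2 fold change -1.70). The metalloprotease genes went apart there, with Adam12 higher (1.54) and Adam9 lower (-1.07). Pappa itself was between 0.569 and 2.21 FPKM and under the cut-off in both comparisons.

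Kazald1, which encodes a secreted protein with an IGF binding protein domain, was higher in sh-CACUL1 (7.75 against 3.16 FPKM, log2 fold change 1.07). The mRNA-binding protein genes Igf2bp2 (-1.35) and Igf2bp3 (-1.17) were lower in sh-CACUL1, and Igf2bp1 was under the cut-off in both comparisons. Igf2, the other ligand gene, was between 0.608 and 3.49 FPKM, and Igfals, whose product holds IGF in a ternary complex in serum, was between 0.855 and 7.22 FPKM.

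**Figure D4:**
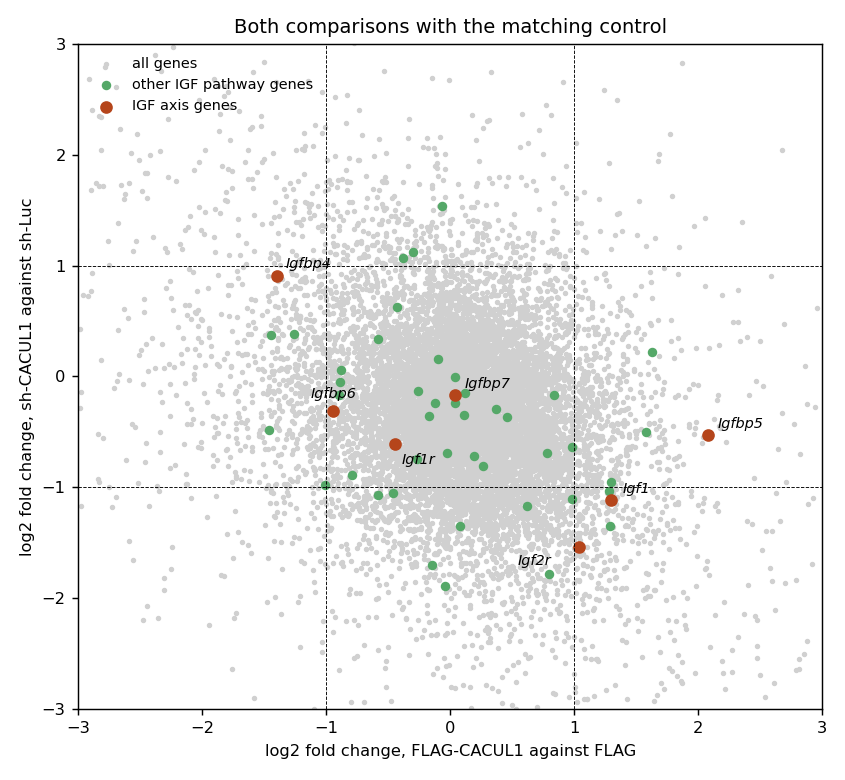
Log2 fold change of (FPKM + 1) in FLAG-CACUL1 against FLAG (horizontal) and sh-CACUL1 against sh-Luc (vertical) for all genes (grey), other IGF pathway genes (green) and the 7 IGF axis genes (red), with dashed lines at the 2-fold cut-off. Igf1 and Igf2r lie in the lower right corner beyond both lines, and 174 genes fall outside the axes.

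For each gene the nearest patterns over the 4 lines were sought among 9563 genes with at least 1 FPKM in every line, by the root mean square difference of mean-centred log2(FPKM + 1). The match is over 4 samples and is a description of these lines. Adding 1 to FPKM shrinks differences at low levels, so the matches of Igf1 and Igfbp5 are not matches of FPKM ratios. Nearest to Igfbp5 were Aebp1 at 0.181, the preadipocyte marker Ly6a at 0.231 and Tgfbi, which encodes a matrix protein, at 0.276, against a median of 1.74 over all candidates. Aebp1 had 31.7 FPKM in FLAG, 126 FPKM in FLAG-CACUL1, 5.93 FPKM in sh-Luc and 5.61 FPKM in sh-CACUL1. Nearest to Igfbp4 were Plod2, a collagen lysyl hydroxylase gene, at 0.537, Ankrd37 at 0.573 and Emp2 at 0.586, against a median of 2.30. Plod2 shared the split by vector, with 199 FPKM in FLAG, 80.1 FPKM in FLAG-CACUL1, 10.2 FPKM in sh-Luc and 8.42 FPKM in sh-CACUL1.

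Igf1 was nearest to Ap3m2 (0.00856), Tulp4 (0.0287) and 2210016L21Rik (0.0476), and Igf2r to Trim2 (0.0443), Pnp (0.0455) and Rbm19 (0.0492). Ap3m2 had 2.39 FPKM in FLAG, 7.2 FPKM in FLAG-CACUL1, 6.63 FPKM in sh-Luc and 2.52 FPKM in sh-CACUL1. Its FPKM ratios were smaller than those of Igf1. The counting error of the Igf1 log2 fold changes (0.28 to 0.31) exceeded the distances of Igf1 to these genes. The nearest to Igf1r were Wdr33 (0.0322), Usp8 (0.0337) and Wbp1l (0.0386), to Igfbp6 they were Baiap2 (0.0741), Mvk (0.113) and Cth (0.118), and to Igfbp7 they were Rp2 (0.0230), Lgr4 (0.0577) and Kctd17 (0.0638). Among the 7 genes themselves, Igf1 and Igf2r (0.251) and Igf1r and Igfbp7 (0.257) lay closest, and Igfbp4 and Igfbp6 (2.69) lay farthest apart. The pair of Igf1 and Igf2r has the same limit of low Igf1 levels.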

How the data were processed

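Messenger RNA of 4 engineered 3T3-L1 lines was sequenced at day 8 of differentiation, with 1 sample per line. The authors deposited FPKM for 13110 rows of RefSeq transcripts per sample. Libraries were made and sequenced by a company, and the labels name the genome build mm10. The aligner, the FPKM program, strand use and any row filter are not given in the sources used here. No row was at 0 in any sample, so all genes here means genes with a value above 0 in every line. No read counts were in the tables, so no count test was run, and with 1 sample per line no test was possible.

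Rows were given GENCODE M21 symbols by RefSeq identifier (196 without a symbol kept their identifier, 8 matched several) and summed per symbol, which left 13085 genes. Positions are those of RefSeq on GRCm38.p6. Upstream windows of 250 bases came from RefSeq, which had 1 for each of the 7 genes. Members and lists were chosen with earlier results of these data known. Named genes were the members, listed pathway genes past 2-fold with at least 1 FPKM in a compared sample, and the 3 nearest patterns of each member. The values of 1 pathway gene that met this rule are not reported here. Other genes are named as markers or as list members under the cut-off, outside that rule. Of the 7 members, 5 had at least 1 FPKM in all 4 samples.

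Depth was estimated from the step in FPKM times length, over rows of 1 transcript of at least 3000 bases. The step is least sharp in sh-Luc. Its sharpness (resultant length, which is 1 for exact steps) was 0.386 there and between 0.501 and 0.535 in the other lines. The counting intervals rest on this estimate. There were 9 alternatives: a pseudocount of 0.1 or none, quantile normalization, median-of-ratios scaling, at least 1 FPKM in all samples, the highest row, a fold of 1.5 or 3, and the other control. The scripts were tested on simulated data. The simulated steps were exact, so that test does not show how well uneven steps give the depth. Python 3.11.15, numpy 2.4.6, scipy 1.17.1, pandas 2.3.3 and matplotlib 3.10.9 were used.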

Additional observations from a re-analysis of the deposited data

How the results depend on the processing

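No paired analysis was possible because each line was sequenced once, and no replicate could be left out for the same reason. Few fragments stand behind Igf1 in FLAG and sh-CACUL1 and behind Igfbp5 in sh-CACUL1. Of 21 log2 fold changes (7 genes in 3 comparisons), 18 kept their sign under both other pseudocounts, both scalings and the highest row, and the exceptions were Igfbp6 and Igfbp7 in sh-CACUL1 and Igfbp7 in FLAG-CACUL1. With the other control 4 differences past the cut-off turned, to -0.58 for Igf2r and 4.08 for Igfbp4 in FLAG-CACUL1, and to 0.06 for Igf1 and 0.08 for Igf2r in sh-CACUL1. The cause was not tested.

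Of the 7 genes, 4 were past the cut-off in FLAG-CACUL1, 2 in sh-CACUL1, 4 between controls and 2 in opposite directions. With at least 1 FPKM in all 4 samples, where Igf1 and Igfbp5 drop out, these counts were 2, 1, 2 and 1. Over the 9563 genes that pass this filter they were 1456, 2204, 2113 and 463. At a pseudocount of 0.1 the 7 genes gave 5, 3, 4 and 3, beside 3161, 4163, 4120 and 1033 of all genes. Without a pseudocount the 7 genes gave the same counts, beside 3775, 4799, 4711 and 1301 of all genes. At a fold of 3 the 7 genes gave 1 in FLAG-CACUL1, 0 in sh-CACUL1 and 0 in opposite directions. The counts over all 13085 genes were 663, 936 and 200. At a fold of 1.5 the 7 genes gave 4 in sh-CACUL1 and 7 between controls, beside 5809 and 5629 of all genes. Against the other control 4 were past the cut-off in sh-CACUL1, beside 2991 of all genes. After median-of-ratios scaling 1 gene was past it in opposite directions, Igfbp4, beside 559 of all genes. Igfbp4 was not among the 2 before.

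Of the 43 other pathway genes, 9 were past the cut-off in FLAG-CACUL1, with 14 at a pseudocount of 0.1, 15 without one, 19 at a fold of 1.5, 1 at a fold of 3 and 5 against the other control. In sh-CACUL1 13 were past it, with 6 after median-of-ratios scaling, 23 at a fold of 1.5 and 3 at a fold of 3. In either comparison 20 were, with 32 at a fold of 1.5 and 4 at a fold of 3. The same either-comparison count was not made over all genes, so these values have no background beside them. The shares of single comparisons are a different measure. Over all genes the counts of 1928 in FLAG-CACUL1, 2788 in sh-CACUL1 and 2750 between controls became 3775, 4799 and 4711 without a pseudocount, 4494, 5809 and 5629 at a fold of 1.5, and 663, 936 and 994 at a fold of 3, and 3161 in FLAG-CACUL1 at a pseudocount of 0.1. The 616 genes in opposite directions became 1033 at a pseudocount of 0.1, 1301 without one, 1808 at a fold of 1.5 and 200 at a fold of 3. Of all genes, 1296 were past the cut-off in FLAG-CACUL1 against the other control, and 2202 in sh-CACUL1 after median-of-ratios scaling. Applying the alternatives to the pathway list and to all genes was decided after seeing the data.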

Other observations

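Between the FLAG and sh-Luc controls, 11 of the 43 other pathway genes with a row were at least 2-fold apart, 5 higher and 6 lower in FLAG, against 21.0% of all genes, and no replicate stands behind any of them. Cish (FLAG 7.97 FPKM, sh-Luc 0.882 FPKM, log2 fold change 2.25) and Stc1 (14.0 and 2.90 FPKM, 1.95) were higher in FLAG. Igfals (0.855 and 7.22 FPKM, -2.15), Pik3r1 (16.5 and 64.9 FPKM, -1.91) and Pik3r2 (27.5 and 91.4 FPKM, -1.70) were lower in FLAG. Dlk1, a preadipocyte marker whose soluble product inhibits adipogenesis, was at 97.2 FPKM in FLAG, 39.4 FPKM in FLAG-CACUL1, 0.220 FPKM in sh-Luc and 21.2 FPKM in sh-CACUL1, and Thy1, another preadipocyte marker, was at 42.4, 144, 0.663 and 34.3 FPKM in the same order, so sh-Luc was the lowest line for both. Genes of this paragraph were chosen after their values were seen.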
